A study of Homo sapiens with 16 samples.

Results

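RNA polymerase II (Pol II) was mapped after 1 h of merbarone and compared with Pol II in control cells, using 8 of the 16 libraries of the study. The members are 2 libraries at 1 h and 6 control libraries, of which 3 had vehicle and 3 were untreated. They were chosen by label and are represented by 1 peak list for 1 h and 1 for control. The assay was chromatin immunoprecipitation and sequencing with an antibody to the N-terminal part of RPB1, the largest Pol II subunit, in libraries made by tagmentation on the beads (ChIPmentation). The cells were wild-type hTERT RPE-1, which derive from human retinal pigment epithelium and were immortalised with telomerase, and all groups were kept for 48 h in medium with 0.1% fetal bovine serum. Merbarone was used at 200 µM for 1 h, vehicle was DMSO for 30 min, and untreated cells received neither, so the 1 h libraries have no vehicle of equal duration. A list for 30 min of merbarone at the same dose (3 libraries) is set beside the others as an earlier time point. Fixation was with 1% formaldehyde for 10 min. The labels do not say whether libraries of a group came from separate cultures, and each list stands for all its libraries, so the values carry no replicate error and no test was possible.

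Merbarone blocks the catalytic cycle of DNA topoisomerase II without trapping the enzyme on cut DNA. Topoisomerase II relaxes the supercoils that a moving polymerase leaves ahead of and behind itself. On most human genes Pol II pauses shortly after the start, and a peak near the start marks mainly such paused enzyme, while peaks over the body and past the end of a gene mark elongating and terminating enzyme. Immediate-early genes such as FOS and EGR1 are paused in resting cells and are released within minutes of a stimulus. Targets of p53, the transcription factor that answers DNA damage and other stress, follow more slowly.

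The values are peak intervals on hg19, without height, score or read depth, so a wider peak is not the same as more Pol II. To give the lists like limits, peaks separated by no more than 37 bp were merged, and in each list peaks narrower than the narrowest 1 h peak were removed, which left the 1 h list as deposited. The control list then held 60318 peaks over 40.6 Mb, the 30 min list 68011 over 46.6 Mb and the 1 h list 81816 over 58.3 Mb. Median peak widths were 356, 346 and 347 bp. Genes were named from recalled hg19 positions, without an annotation of that build, and their lengths or spacings were checked against RefSeq, so starts and ends are approximate. Read depth was unknown for each list, and its part in these differences was not tested. Of 10 marker genes of retinal pigment epithelium, 6 had no control peak between start and end, RPE65, TYRP1, RLBP1 and TTR among them. MITF, PMEL and OTX2 had a domain, a group of neighbouring peaks as defined below, within 500 bp of their start. Whether a peak lay at the start itself was not examined. BEST1 had no domain there, but control peaks covered 45.1% of the gene and 74.4% of the 5 kb past its end. Whether these peaks belong to BEST1 or to a neighbouring gene was not tested. KRT8 and KRT18, keratins of simple epithelia, were covered, and CDH1 and EPCAM had no peak. Of 4 mesenchymal genes, control peaks covered 100% of VIM, a filament gene, 74.9% of FN1, 8.49% of COL1A1 and 0.795% of CDH2. The blood cell genes CD3E and PTPRC had no control peak, and PTPRC was covered over 0.195% at 1 h.

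Cover by Pol II rose at 1 h over most of the longer loci that could be compared. Control and 1 h peaks no more than 5 kb apart were grouped into 21358 domains, and the share of each domain's length under peaks was compared in the 5039 domains of at least 5 kb that held a peak in both lists (median length 11.1 kb). Of these, 3055 gained at least 10 percentage points of cover at 1 h (60.6%) and 113 lost as much (2.24%), here called covered more and covered less. The median change was 13.2 points, against 3.91 at 30 min over the same domains, of which 23.4% rose by at least 10 points at the earlier time. At 1 h the middle 90% of domains lay between -5.18 and 38.2 points. The 10919 shorter domains with a peak in both lists were left out of these values. Domains were drawn partly from the 1 h peaks: drawn from control peaks alone with 2.5 kb on either side, the median change was 3.82 points and 26.1% of 17370 domains were covered more. With gaps of up to 10 kb, 69 domains were covered less. The domains nearest to the limit changed by 10.0142 points inside and 9.99507 outside it.

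Bases added to the cover lay mostly near control peaks. In all, 23.1 Mb were under a 1 h peak and no control peak, and 5.33 Mb the other way round. Of the added bases, 59.8% filled gaps between control peaks of 1 domain, 31.9% lay outside the outermost control peaks of a domain, and 8.22% lay in the 4170 domains with no control peak. Within 200 bp of a control peak lay 35.7% of added bases, and a further 30.1% lay within 1 kb. Some peaks ran together: 8951 of the 81816 peaks at 1 h (10.9%) each held at least 2 control peaks, 55 held at least 10, and the most in a single peak was 22. The number of separate peaks still rose, from 43240 in control to 56684 at 1 h over the compared domains. Control peaks split into several at 1 h were not counted. Of 1 h peaks, 40699 (49.7%, Wilson 95% interval 49.4 to 50.1) overlapped no control peak, and of control peaks 10120 (16.8%, 16.5 to 17.1) overlapped no 1 h peak. These intervals cover counting error only.

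How much a domain rose differed with how full it was in control, and a full domain cannot rise. The median change was 15.8 points in the 1721 domains with 0 to 20% control cover, 13.7 points in the 1835 with 20 to 40% and 12.5 points in the 924 with 40 to 60%. It was 8.78 points in the 396 domains with 60 to 80% and 3.14 points in the 163 with 80 to 100%. These medians describe the general widening of cover, by new peaks as well as wider ones. Each named gene below can be read against the median of its own range of control cover.

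**Figure D1:**
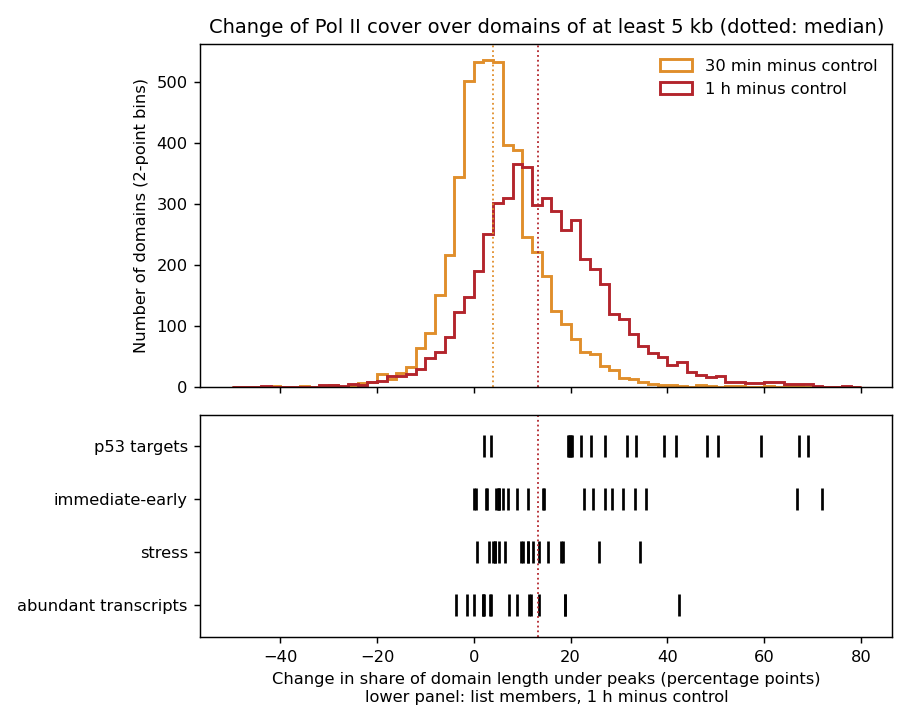
Upper panel: number of domains of at least 5 kb by change of Pol II cover, in percentage points from control to 30 min and to 1 h, with dotted medians at 3.91 and 13.2. Lower panel: 1 tick per list member, 1 h minus control, with the 1 h median dotted; 17 of 19 p53 targets lie right of 10 points, against 6 of 16 abundant transcripts.

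Genes of the p53 response gained cover between 30 min and 1 h. The list held 26 known targets, of which 19 started in a domain that could be compared, 6 in a shorter domain and GDF15 in none. Among the 19, 17 were covered more by at least 10 points at 1 h (background 60.6%), 14 by at least 20 (background 30.6%), 6 by at least 40 (background 4.17%) and none less. Only AEN had risen by 10 points at 30 min, so 16 of the 19 rose late (background 41.2%). Median cover of the 19 domains was 28.2% in control, 35.3% after 30 min and 74.6% after 1 h, and the median change was 27.2 points at 1 h and 1.10 points at 30 min. In 17 of the 19 the rise exceeded the median of all domains with like control cover, and in 9 it exceeded the 90th percentile of those domains. A domain can hold neighbouring genes, and its cover is then shared with them.

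Of the genes that feed back on p53, MDM2, the ubiquitin ligase that degrades it, rose the most. Its domain (chr12:69201146-69249254, 48.1 kb) was covered over 24.0% in control, 29.0% after 30 min and 91.2% after 1 h. In control, 26 separate peaks marked the domain and the longest measured 1.91 kb, against 11.1 kb at 1 h. From start to end the MDM2 gene itself went from 18.4% to 94.9%. CCNG1, a cyclin that recruits a phosphatase to MDM2, had a domain of 25.1 kb at 31.7%, 38.9% and 73.4% in the same order. PPM1D, a phosphatase that dampens the damage response, had a domain of only 3.39 kb around its start, at 59.0%, 69.8% and 92.1%.

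Genes that arrest the cell cycle showed 2 kinds of starting point. BTG2, an antiproliferative cofactor of mRNA decay, had a domain of 6.74 kb (chr1:203274099-203280837) at 28.2% in control, 24.4% after 30 min and 97.2% after 1 h. GADD45A was already covered over 63.9% in control and 68.5% at 30 min, and reached 95.5%. CDKN1A, the p21 inhibitor of cyclin-dependent kinases, went from 72.5% through 67.8% to 96.7%, with its longest peak growing from 7.66 to 13.3 kb. BTG1, the relative of BTG2, stood at 46.0%, 39.7% and 65.7%, and the kinase gene PLK3 at 75.8%, 78.5% and 95.2%. PLK2, a kinase gene of the same family, stood at 94.0%, 92.2% and 96.2%.

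Of the genes of cell death, AEN, a nuclease active in apoptosis, rose the most. Its 18.6 kb domain was covered over 21.5% in control, 35.3% after 30 min and 80.9% after 1 h. TP53INP1, an inducer of autophagy and cell death, had the least covered domain of this group, 37.4 kb at 7.70%, 7.52% and 55.9%, with 5 peaks in control and 36 at 1 h. BBC3, which encodes PUMA, went from 21.1% through 20.5% to 60.4%. BAX, the pore-forming protein that PUMA helps to activate, stood at 70.7%, 75.7% and 91.0%, and TNFRSF10B, a death receptor, at 12.8%, 10.3% and 32.6%. FAS, another death receptor, had a domain of 2.5 kb at its start, covered over 73.3%, 73.1% and 93.9%. TRIAP1, an inhibitor of apoptosis, shared a 32.7 kb domain that stood at 56.7%, 63.9% and 78.8%. PHLDA3, a repressor of AKT, passed no limit, at 70.9%, 65.7% and 74.6%.

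Genes of repair, metabolism and RNA binding that could be compared were sparsely covered in control. FDXR, the mitochondrial ferredoxin reductase, had a single control peak at its start, 1.48 kb long, and cover of its 12.6 kb domain went from 11.7% in control through 12.8% at 30 min to 62.2% at 1 h. One of the 5 widest 1 h peaks without any control overlap, 3592 bp, lay at the far end of FDXR (chr17:72857641-72861232), and no base of it was under a 30 min peak. ZMAT3, an RNA-binding protein that acts on splicing, stood at 19.6%, 19.4% and 53.1%. The stress-induced SESN2 stood at 6.64%, 8.77% and 33.9%, and the repair gene XPC at 10.3%, 13.3% and 30.5%. In the short domains at their starts, RRM2B, a subunit of ribonucleotide reductase, went from 76.9% to 100% and POLH, a polymerase for damaged templates, from 55.8% to 80.2%. TIGAR and SESN1 differed by 1.87 and 2.93 points between control and 1 h.

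**Figure D2:**
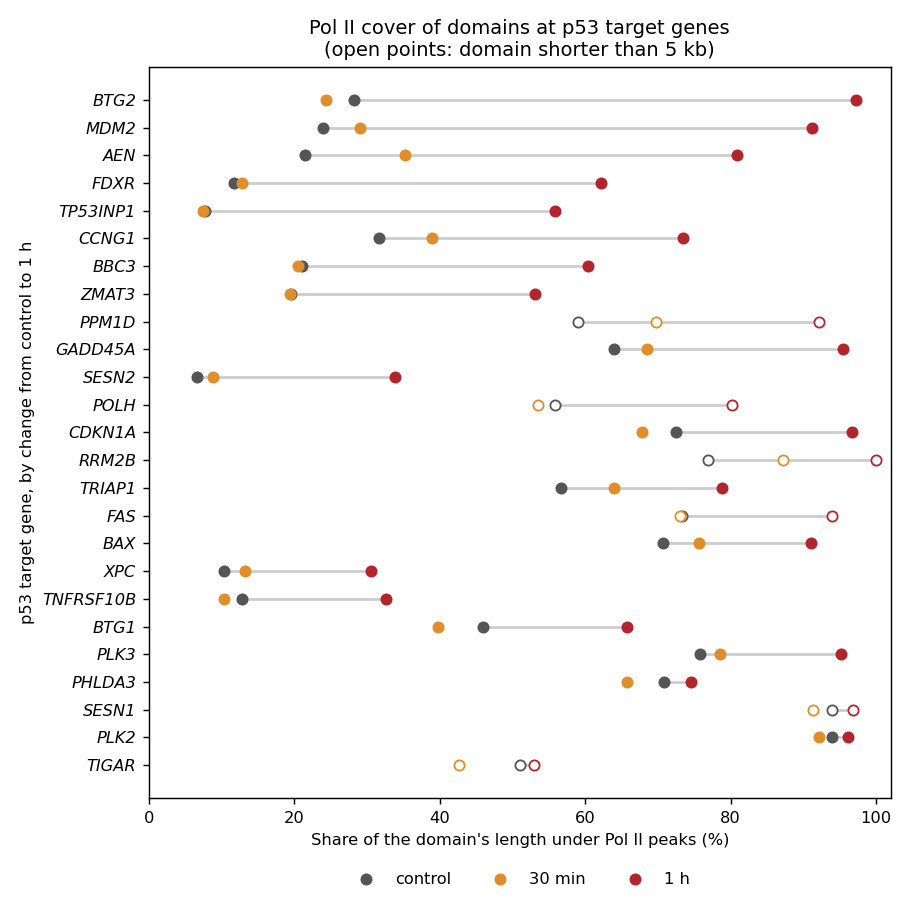
Share of domain length under Pol II peaks (%, horizontal axis) for 25 p53 target genes, ordered by the change from control to 1 h; each gene has 1 point for control, 30 min and 1 h. Control and 30 min points lie close together for most genes, MDM2 at 24.0% and 29.0% among them, while its 1 h point stands at 91.2%; open points mark domains shorter than 5 kb.

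The promoters of AEN and FAS are shown because they were the 2 of 21 p53 targets with a promoter window, 250 bases before to 50 after the start in RefSeq (GRCh38.p14), that held a p53 response element. The element was searched on both strands as 2 half-sites of 10 bases with a spacer of up to 13 bases and at most 2 mismatches, none in the core, and 1.46% of all 35116 windows hold it. Capitals mark the match, which in AEN (chr15:88621090-88621389, plus strand) runs from 34 to 15 bases before the start. In FAS (chr10:88991181-88991480, plus strand) 2 overlapping matches run from 122 to 98 bases before the start.
AEN: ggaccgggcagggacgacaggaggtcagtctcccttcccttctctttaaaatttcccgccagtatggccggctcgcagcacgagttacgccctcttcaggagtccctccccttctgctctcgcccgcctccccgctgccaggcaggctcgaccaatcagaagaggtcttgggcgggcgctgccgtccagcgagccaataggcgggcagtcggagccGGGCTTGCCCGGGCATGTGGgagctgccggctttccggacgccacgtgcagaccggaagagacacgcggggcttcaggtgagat
FAS: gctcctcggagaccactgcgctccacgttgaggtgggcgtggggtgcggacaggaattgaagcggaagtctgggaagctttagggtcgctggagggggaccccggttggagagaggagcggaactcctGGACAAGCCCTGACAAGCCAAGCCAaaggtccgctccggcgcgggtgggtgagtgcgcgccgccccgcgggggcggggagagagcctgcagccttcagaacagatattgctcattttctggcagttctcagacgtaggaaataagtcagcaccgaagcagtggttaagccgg

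A match is a description of the letters in this window, of another build than the peaks, and was not tested for binding. The other 19 targets had no window with a match, which says nothing of elements farther away. Targets were counted by gene, with any window, and the background by single window.

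Cover of p53 targets also rose past their ends. In the 5 kb after the recalled end, median cover over the 26 genes was 23.8% in control, 32.2% after 30 min and 71.5% after 1 h. Those 5 kb can also hold neighbouring genes, whose cover is then included. A rise of at least 10 points there was seen for 19 of the 26 at 1 h and 1 at 30 min, and for 13 of 28 immediate-early and 4 of 16 abundant genes at 1 h. No share over all genes can be set beside these counts, since no hg19 annotation was used here. TP53INP1 went from 6.62% to 70.5% past its end, SESN2 from 0 to 43.5% and CCNG1 from 19.2% to 88.1%. From start to end, median cover of the 26 genes was 11.3%, 17.1% and 64.3% across control, 30 min and 1 h. The bases added in p53 domains, 134 kb in all, lay farther from control peaks than those of abundant genes. Within 200 bp lay 24.2% and at 1 to 5 kb 30.9%, against 49.1% and 13.8%. A fuller domain leaves less room far from a control peak, and median control cover was 28.2% in p53 domains and 78.5% in abundant ones. No domains of like control cover were compared for this distance. The shares of added bases are a description over genes of 1 pair of lists.

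**Figure D3:**
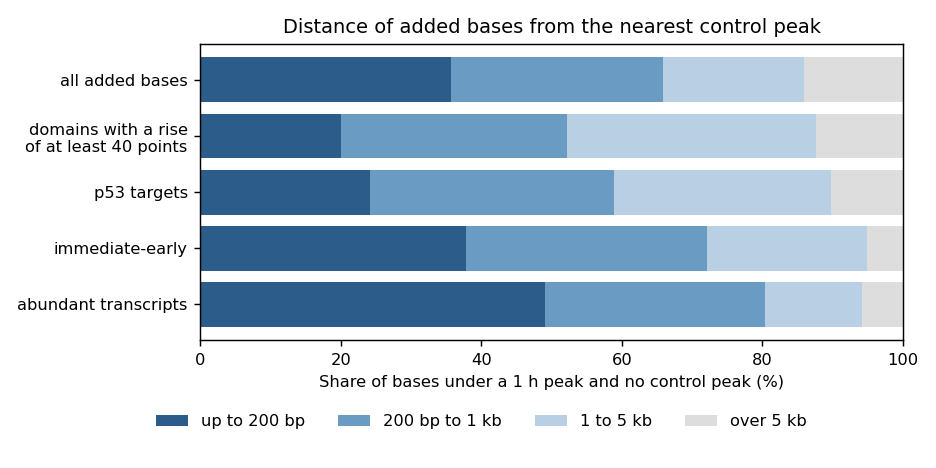
Bases under a 1 h peak and no control peak, as a stacked share (%) by distance to the nearest control peak, for all added bases, the 210 domains with a rise of at least 40 points, and domains of 3 gene lists. Within 200 bp lay 35.7% of all added bases, 20% of those in the steepest domains, 24.2% in p53 domains, 37.8% in immediate-early domains and 49.1% in domains of abundant transcripts.

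Of the immediate-early genes that gained cover, most had done so by 30 min, and many others were full in control. The list held 28 genes of the growth factor response. Of these, 23 started in a domain that could be compared, 3 in a shorter domain, and ATF3 and NR4A1 in none. ATF3 thus enters no domain count, though cover of the 5 kb past its recalled end went from 0 through 7.48% to 44.9%. Of the 23, 12 were covered more by at least 10 points at 1 h (background 60.6%), 7 were so at 30 min (background 23.4%), and 5 were late (background 41.2%). Against domains of like control cover, 14 of the 23 exceeded the median and 4 the 90th percentile. Median cover was 56.1%, 67.1% and 81.6% across control, 30 min and 1 h. In 14 of the 28 genes at least 90% of the gene was under control peaks already, JUN, IER3 and CTGF among them, and measured from start to end 7 of the 28 rose by at least 10 points at 1 h.

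EGR1, a zinc finger transcription factor, filled its 7.77 kb domain early, at 33.3% in control, 97.7% after 30 min and 100% after 1 h. FOS, a partner of JUN in the factor AP-1, likewise stood at 19.6%, 86.7% and 91.5%. Its longest peak measured 0.799 kb in control, 3.40 kb at 30 min and 1.67 kb at 1 h, when 8 peaks covered the domain. FOSB, a relative of FOS, was covered over 16.9%, 78.3% and 52.4%, higher at 30 min than at 1 h. DUSP5, a phosphatase that acts on ERK, stood at 20.8%, 45.5% and 51.6%. KLF10, a factor of the TGF-beta response, was late, at 61.8%, 57.7% and 95.1%, and so was CYR61, a secreted matrix protein, at 58.9%, 67.1% and 87.5%.

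The promoters of EGR1 and FOS are shown because these genes had the largest rises of the list. CArG boxes, to which serum response factor binds, were searched on both strands and are held by 1.29% of all 35116 RefSeq windows. Of 20 immediate-early genes with a window, 3 had such a box in one, EGR1, EGR2 and SRF. The TATA motif TATAAA, read on either strand, is held by 11.5% of all windows and was found for 7 of the 20 genes, and it can lie inside a CArG box. List members were counted by gene, with any window, and the background by single window. In EGR1 (chr5:138465229-138465528, GRCh38.p14, plus strand) capitals mark 2 CArG boxes between 105 and 74 bases before the start, and in FOS (chr14:75278578-75278877, plus strand) they mark TATAAA from 33 to 28 bases before it.
EGR1: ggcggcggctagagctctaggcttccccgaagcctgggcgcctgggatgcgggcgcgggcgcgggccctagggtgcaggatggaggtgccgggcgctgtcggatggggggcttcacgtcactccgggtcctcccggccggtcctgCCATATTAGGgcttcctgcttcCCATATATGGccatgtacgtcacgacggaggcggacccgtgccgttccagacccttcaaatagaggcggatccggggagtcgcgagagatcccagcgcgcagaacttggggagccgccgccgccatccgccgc
FOS: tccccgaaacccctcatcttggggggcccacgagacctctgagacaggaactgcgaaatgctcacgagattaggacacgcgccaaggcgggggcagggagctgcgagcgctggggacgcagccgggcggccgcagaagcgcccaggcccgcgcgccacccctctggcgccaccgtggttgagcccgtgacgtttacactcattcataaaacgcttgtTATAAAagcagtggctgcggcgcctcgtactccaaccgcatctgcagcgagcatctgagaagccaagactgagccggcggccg

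Other stress genes as a group did not stand above the general widening. Of 29 genes, 18 started in a comparable domain (17 distinct, as HSPA1A and HSPA1B share 1 and are near-identical copies whose reads cannot be assigned with certainty). At 1 h 10 were covered more by at least 10 points (background 60.6%), 2 by at least 20 (background 30.6%) and 6 late (background 41.2%), and 9 of the 18 exceeded the median of domains with like control cover. The 2 past 20 points were VEGFA, the angiogenic growth factor induced by the integrated stress response, at 64.7%, 75% and 99.1%, and NFKBIA, the inhibitor of NF-kappaB, at 61.3%, 73.0% and 87.2%. In VEGFA 16 control peaks became 3 at 1 h, and the longest grew from 4.14 to 15 kb.

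Counts by subgroup are small and near the background, since 60.6% of all compared domains rose by at least 10 points. In the integrated stress response 3 of 6 compared genes rose. DDIT3, which encodes CHOP, stood at 45.1%, 50% and 60.5% and CHAC1 at 13.2%, 15% and 25.4%. ATF4, the central factor of that response, stood at 84.1%, 87.2% and 89.3%. Of the 6 compared heat shock genes, which lie in 5 distinct domains, 3 rose. DNAJB1, a cochaperone, was higher at 30 min (98.6%) than in control (75.3%) or at 1 h (88.8%). Of oxidative stress genes 2 of 3 rose, SQSTM1 from 57.1% through 61.7% to 75.5% and NQO1 from 29.2% through 35.1% to 40.5%. Of NF-kappaB and cytokine genes 2 of 3 rose, NFKBIA and the cytokine LIF (61.3%, 63.9% and 79.5%), while CXCL8, CXCL1 and BIRC3 had no domain at their start.

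Genes with abundant transcripts were mostly covered in control, and their median change at 1 h was 5.41 points. All 16 were compared, 6 rose by at least 10 points (background 60.6%), and their median cover was 78.5% in control, 79.2% after 30 min and 85.8% after 1 h. Against domains of like control cover, 9 of the 16 exceeded the median and 1 the 90th percentile. Measured from start to end, 2 of the 16 rose by at least 10 points. ACTB stood at 97.7% in control and 94.0% at 1 h, and GAPDH at 69.1% and 67.6%. COL1A1, the main chain of type I collagen, was the exception with a rise over 40 points, from 13.2% in control and 11.5% at 30 min to 55.7% at 1 h.

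Among all compared domains, the 12 largest rises in share held genes of several kinds beside those above, and 6 of the 12 had risen by less than 10 points at 30 min. SNAI1, a repressor of epithelial genes, rose the most. Its 8.09 kb domain (chr20:48599045-48607137) was covered over 23.3% in control, 50.6% after 30 min and 100% after 1 h, in a single peak. MSC, which encodes musculin, a repressor of the basic helix-loop-helix family (chr8:72751488-72757328), stood at 31.1% in control and at 30 min and at 99.3% at 1 h. SPSB1, a substrate adaptor of a ubiquitin ligase, filled in over 85.1 kb (chr1:9351841-9436939) from 4.27% through 10.1% to 72.6%, with 11 peaks in control, 19 at 30 min and 76 at 1 h.

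ITPRIP, a modulator of the inositol trisphosphate receptor, went from 18.8% through 32.5% to 86.0% over 39.1 kb (chr10:106059556-106098670). ITGA11, a collagen-binding integrin subunit, went from 4.74% through 5.20% to 70.8% over 30.0 kb from its start (chr15:68694892-68724865). The other 3 of the 12 lay over the end of MTHFSD (9.38%, 35.5% and 78.3%), the end of TKFC (11.4%, 18.8% and 76.7%) and a stretch inside DOK7 (29.0%, 47.1% and 95.9%). The remaining members, FOS, EGR1, BTG2 and MDM2, are given above. Over all compared domains, 210 rose by at least 40 points (4.17%), 89 of them late (1.77%).

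**Figure D4:**
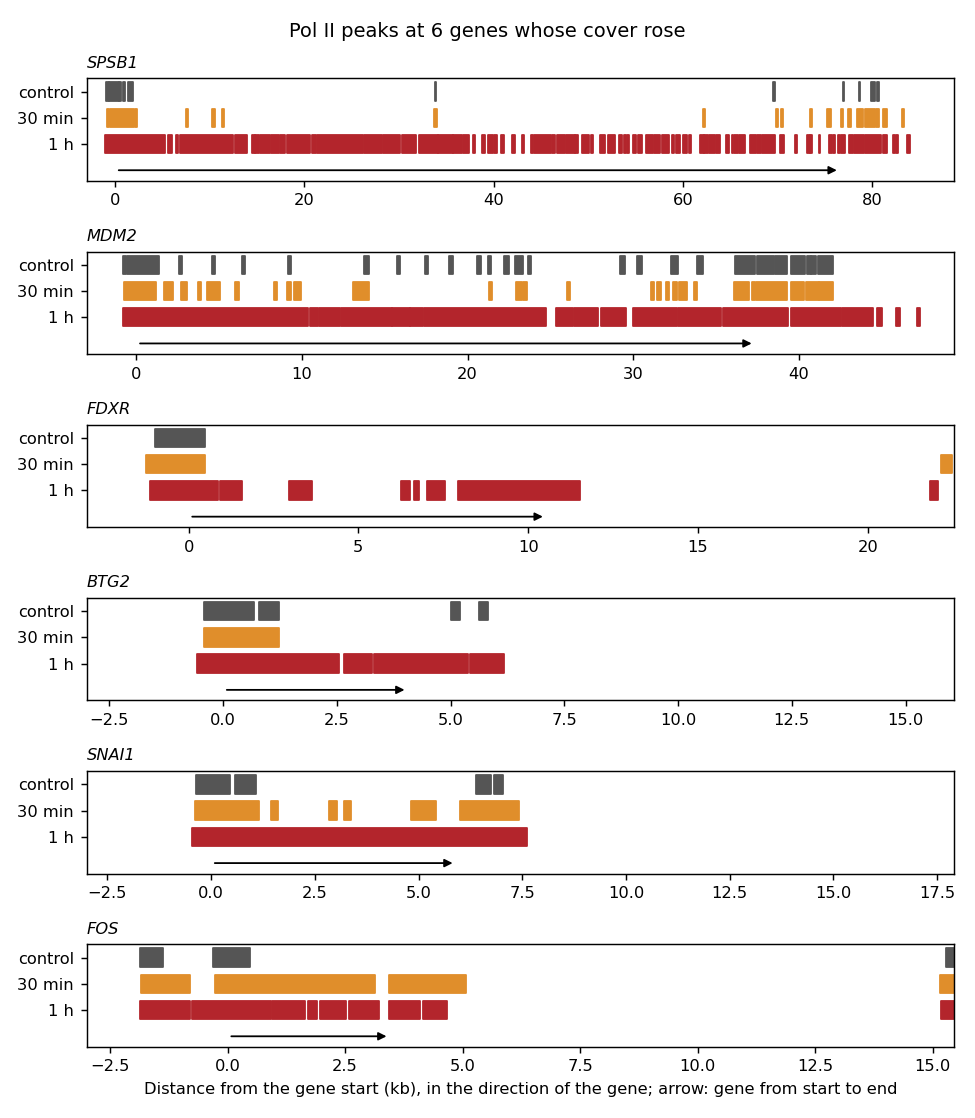
Pol II peaks (blocks) in control, at 30 min and at 1 h along 6 genes, by distance from the gene start in kb in the direction of the gene, with an arrow from start to end. Control peaks of SPSB1, MDM2, FDXR, BTG2 and SNAI1 lie at the start and, in part, near the end, with few or short peaks between; at 1 h peaks cover most of SPSB1 (72.9% of the gene), MDM2 (94.9%) and SNAI1 (100%), while FOS is covered over 91.4% after 30 min and 87.2% after 1 h.

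A ranking by added length favours long domains, and the 12 with the most added bases measured 63.3 to 500 kb. Most was added over FRMD4A, 97.8 kb in a domain of 500 kb that was covered over 29.1% in control, 42.5% after 30 min and 48.7% after 1 h. MACF1, a linker of actin and microtubules, added 94.8 kb (17.4%, 26.3% and 41.8%), and NAV1, a neuron navigator, 81.7 kb (25.3%, 41.2% and 53.1%). SKI, a repressor of TGF-beta signalling, added 57.3 kb at 14.6%, 18.8% and 78.9%, and DHRS3, a retinaldehyde reductase, 40.7 kb at 13.8%, 22.2% and 78.1%. ITGB5, an integrin subunit, added 58.0 kb (11.7%, 23.7% and 56.1%) and TIMP2, an inhibitor of matrix metalloproteinases, 41.8 kb (18.1%, 20.2% and 66.4%). The rest of the 12 were SPSB1, RPS6KA2, NAV2, ASAP2 and a domain shared by MMP2 and LPCAT2, with 65.7 kb at RPS6KA2 and 41.3 kb at the last. Of the 12, 8 had risen by less than 10 points at 30 min. That is near the general share: of all 3055 domains covered more by at least 10 points at 1 h, 2078 were late.

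Falls were fewer than rises. Of the 12 largest, 7 held the end of a known gene and 3 a gene start, against 10 and 8 of the 12 largest rises. Only recalled genes were looked up, so no share over all compared domains can be set beside these counts. Among the 7 falls with a gene end, the domains of BMP4 and TXNIP held the whole gene. Over the last part and the end of DYNLL2, a dynein light chain (chr17:56169132-56174166), cover fell from 52.6% in control to 18.5% after 30 min and 10.2% after 1 h. This domain ran from 8.351 to 13.386 kb from the gene start, and the recalled end lies at 12.118 kb, so most of it was inside the gene. The domain at the start of DYNLL2 went from 84.4% to 100%. At the end of TSPO, a mitochondrial membrane protein, cover fell from 38.6% through 21.5% to 12.3%. Over the end of PPAP2B, a lipid phosphatase, it fell from 33.3% through 28.1% to 8.04% over 23 kb. The ends of SCRN1 (32.8%, 29.4% and 7.92%) and AKAP2 (61.3%, 54.6% and 37.4%) fell likewise.

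BMP4, a ligand of the TGF-beta family, went from 88.9% through 77.2% to 58.1% of a 10.5 kb domain. The peak at its start ended 4.345 kb into the gene in control and 3.854 kb at 1 h, so the cover was lost mainly in the later part of the gene and past its end, where it went from 47.0% to 16.3% of the next 5 kb. TXNIP, which binds thioredoxin and restrains glucose uptake, was under 1 unbroken control peak of 7.10 kb and under 6 peaks at 1 h, with 100%, 94.7% and 74.8% covered. A domain at the recalled start of CDKL1, a kinase gene, went from 69.3% to 46.3% after 30 min and 46.0% after 1 h, and whether it is a gene start rests on that single recalled position. A domain inside GINS2, a subunit of a replication complex, (chr16:85710104-85716309) stood at 54.3%, 58.9% and 24.5%. The 3 others hold no gene named here. One, at chr11:69189550-69195600, was covered over 37.9% in control, 80.3% after 30 min and 6.40% after 1 h, and 1 at chr6:129884177-129890627 over 50.4%, 66.7% and 22%; the last was chr3:197614070-197619605, at 38.1%, 24.1% and 13%.

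**Figure D5:**
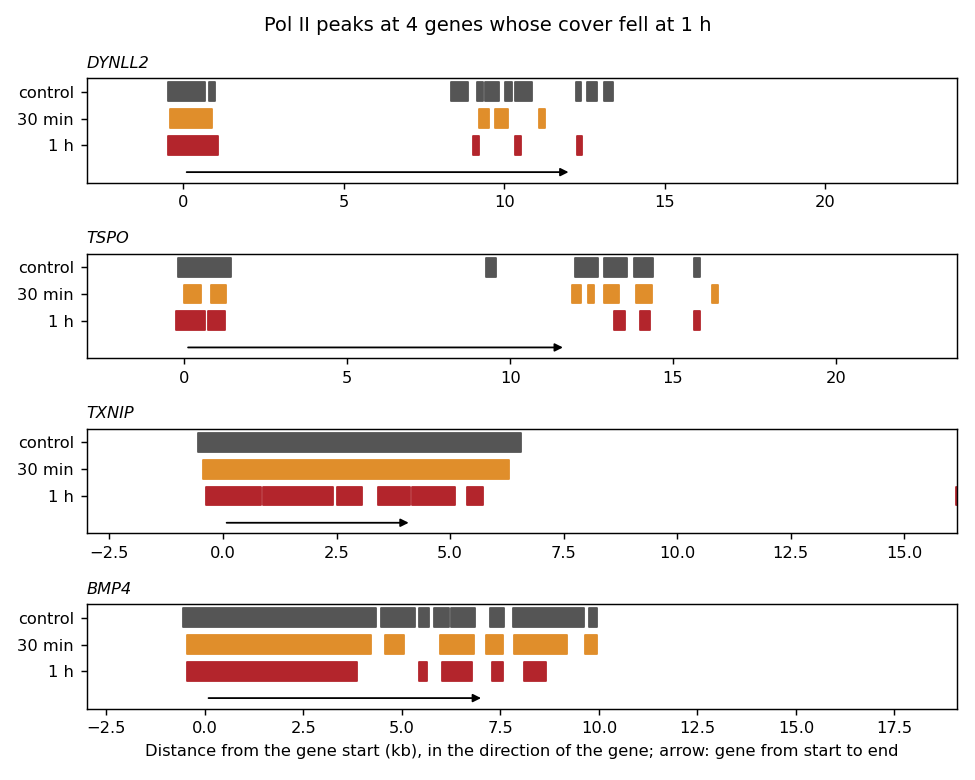
Pol II peaks (blocks) in control, at 30 min and at 1 h along DYNLL2, TSPO, TXNIP and BMP4, by distance from the gene start in kb in the direction of the gene, with an arrow from start to end. Peaks at the starts of DYNLL2 and TSPO are present in all 3 lists, while those at the gene end shrink, from 52.6% to 10.2% and from 38.6% to 12.3% of the end domain between control and 1 h.

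Domains with peaks in 1 of the lists alone were mostly short, with median lengths of 270.5 bp at 1 h and 226 bp in control. The 4170 with no control peak held 1897575 bp of 1 h peaks, and the 1230 with no 1 h peak held 349609 bp of control peaks. The most 1 h cover without a control peak lay inside MYO5B, a myosin motor (chr18:47367665-47376472), at 27.8% after 30 min and 78.5% after 1 h. It was followed by the end of PEPD (1.34% and 41.1%) and stretches inside DNMBP, ITGA11, PRDM16 and MEGF11, which held 24.8% to 42.4% at 1 h. The most control cover without a 1 h peak lay inside COL12A1, a collagen chain (chr6:75826120-75843882), at 10.4% in control and 1.84% at 30 min. Stretches of COL8A1 (55.3% and 44.6%), NFIC (18.6% and 22.9%) and FAM46B (59.9% and 77.2%) followed, with 2 that hold no gene named here.

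Of these, chr15:69068129-69069894 was covered over 93.1% in control and 78.5% at 30 min, and chr7:128331482-128337405 over 28.9% and 0. The widest single 1 h peaks without control overlap were 2 in SPSB1 (5699 and 4889 bp), 1 in SPOCK1 (chr5:136824763-136829585, 4823 bp), 1 in ITPRIP (4495 bp) and that of FDXR. Of the 5 widest control peaks without 1 h overlap, the first was 1658 bp at chr12:109028874-109030531, with a 1 h peak 125 bp away, and 2 lay in CAPN12 (1110 and 1095 bp).

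Peaks of DNA topoisomerase II alpha (TOP2A), the form of the enzyme found in dividing cells, were called in untreated cells from 2 libraries. Of domains covered more by at least 10 points at 1 h, 9.03% held a TOP2A peak (Wilson 95% interval 8.07 to 10.1, n = 3055). Of those that changed by less, the share was 11.7% (10.3 to 13.2, n = 1871), of those covered less 7.08% (3.63 to 13.4, n = 113), and of those with a rise of at least 40 points 11.9% (8.2 to 17, n = 210). Median control cover of the first 2 classes differed, at 25.1% and 30.9%, and so did their median length, at 12 and 9.8 kb. Over all 5039 compared domains the share was 9.96%. Of the compared domains, those of 7 of 19 p53 targets, 10 of 23 immediate-early genes and 11 of 16 abundant genes held a TOP2A peak, and the median lengths of the compared domains of these lists were 16.3, 13.1 and 37.9 kb, against 11.1 kb over all.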

How the data were processed

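Pol II libraries of hTERT RPE-1 cells were grouped by label into control, 30 min and 1 h of merbarone, with untreated TOP2A beside them. Per the submitters' processing notes, Bowtie 1.2.0, MACS2 and deepTools 2.4.1 were used by the authors and positions are on hg19. The peak threshold, background and way of combining libraries, and the version of MACS2, are not given in the sources consulted. The deposited values are peak starts and ends in bp, with no score, so read depth and precision are unknown. IgG libraries were not analysed here.

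From these, peaks up to 37 bp apart were joined, those under 159 bp dropped, domains joined across gaps of up to 5 kb, and the share of each domain under peaks computed. Peaks were shared at 1 bp of overlap. Named loci are the 12 largest rises, 12 largest falls, 12 with most added length, 6 with no control peak, 6 with no 1 h peak and the 5 widest unshared peaks per list, with the gene lists. Members and lists were chosen with earlier results of these data known. Gene positions on hg19 were recalled, not read from an annotation: of 172, 149 had a length within 10% of that in the RefSeq table (GRCh38.p14), 21 only a spacing to a neighbour within 1000 bp of it, and ASNS and LRAT were not checked. A domain was a gene's if it lay within 500 bp of the start. Scripts were tested on simulated data, with Python 3.11.15 (numpy 2.4.6; pandas 2.3.3; scipy 1.17.1; matplotlib 3.10.9).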

Additional observations from a re-analysis of the deposited data

How the results depend on the processing

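No paired analysis was possible because each condition has 1 list for all its libraries, and for the same reason no library could be left out in turn. Of 65 values recomputed under alternatives, 38 kept within the limits set for a change, 27 moved and none reversed. Domains and genes covered more entered as counts, so a count could be kept while its share changed. Domains covered more made up 60.6% as reported, 47.3% with gaps of up to 10 kb and 26.1% when drawn from control alone. Stress genes covered more made up 55.6% as reported and 32% when drawn from control alone. All these counts were among those kept, 4540 domains against 3055 included. A ratio of covered length of 1.45 against 1.44 counted as moved, so the labels do not measure the size of a change. The count of p53 targets covered more stayed between 14 and 17 under every alternative, though the number that could be compared ranged from 17 to 26. On lists as deposited, the ratio of covered length at 1 h to control was 1.36 against 1.44, the median change 11 points against 13.2, the share of added bases between control peaks 66.3% against 59.8%, and the unshared peaks 44.1% at 1 h and 22.3% in control, against 49.7% and 16.8%. With peaks of at least 300 bp these were 1.45, 16.7 points, 46.7%, 43.2% and 11.2%. Gaps of up to 2 kb gave a median change of 18.8 points and 48.9% between control peaks, and gaps of up to 10 kb 9.32 points, 67.7% and 69 domains covered less against 113. Domains drawn from control peaks alone with 2.5 kb on either side had a median change of 3.82 points, and 4540 of 17370 (26.1%) were covered more, 17 of 25 p53 targets among them. At a limit of 20 points, 1542 domains were covered more, 19 less and 1328 late, with 2 stress and 1 abundant gene covered more. Over the gene from start to end, 7 immediate-early and 2 abundant genes were covered more. With an overlap of at least 50% of the peak, unshared peaks were 60.9% at 1 h and 23.4% in control, and with peaks within 1 kb counted as shared, 28.9% and 6.29%. Unknown depth limits all shares, and 361 domains lay within 1 point of the 10-point limit. The causes of these moves were not tested beyond what each setting changes.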
